A study of Brassica juncea with 4 samples.

Results

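Among the source sequences of a Brassica napus oligonucleotide array, 55 carry an identifier of the older format for single nucleotide records, in which 1 letter (M, U, X, Y or Z) is followed by 5 digits. Records of this format were taken here to hold sequences that were cloned and submitted one by one, which the files do not state. Most of the array carries identifiers of other formats, such as those of expressed sequence tags and assembled contigs. The 55 records, referred to here as cloned-gene records, were selected by the format of the identifier. This rule was set with earlier results of these data known. The records are read by 76 of the 43603 probes on the array, which holds 40642 source sequences in all. They comprise 29 records with the letter X, 12 with U, 7 with Y, 4 with Z and 3 with M. The deposited files do not pair the identifiers with gene names, descriptions, species or nucleotide sequences, so the records are described by identifier and no gene role is given to them. The leaf RNA came from Brassica juncea (Indian mustard) of the cultivar RLM-198, harvested 45 days after sowing from BnCRY2aOE plants (BnCRY2a overexpression) and from wild-type plants, with no treatment before harvest. For each genotype 2 arrays were hybridised, named as biological replicates in the labels. The promoter of the transgene, the number of transgenic lines and the number of plants behind an array are not given in the labels used here, so p-values measure only the spread between these samples.

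Cryptochromes are blue-light photoreceptors of plants that carry a flavin chromophore. Cryptochrome 2 takes part in seedling growth under blue light and in the control of flowering time in Arabidopsis, where the protein is removed quickly under strong blue light. B. juncea is an amphidiploid species that shares one of its parental genomes with B. napus, so a transcript may be present in several similar copies and may match a B. napus probe fully or in part. The level of the BnCRY2a transgene was not analysed here, because no probe could be assigned to it from the files.

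The level used throughout is the log2 of the processed spot signal minus that of the array's 75th percentile, so that 0 is a signal equal to that percentile. The 75th percentile itself was 254 and 218 brightness units on the BnCRY2aOE arrays and 220 and 227 on the wild-type arrays. No spot was saturated, and none of the 304 spots of the cloned-gene records was itself marked as an outlier, although the surroundings of 7 of them, on 4 probes, were so marked. All 4 arrays lay on 1 slide and were read in 1 scan.

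The cloned-gene records were detected about as often as the rest of the array. Of their 76 probes, 53 and 55 were well above background on the BnCRY2aOE arrays, and 51 and 52 on the wild-type arrays, which is 69.7%, 72.4%, 67.1% and 68.4%. The other 43527 probes gave 69% and 71.4% on the BnCRY2aOE arrays and 67.5% and 69.3% on the wild-type arrays. On all 4 arrays 50 of the 76 probes were well above background (65.8%, against 64.2% of the other probes), and 20 were so on no array (26.3%, against 24.7%). Probes were compared between genotypes if both arrays of at least 1 genotype were well above background. This kept 53 probes from 40 records, and 50 of the 53 were well above background on all 4 arrays. Of the 23 probes left out, 20 were well above background on no array and 3 on 1 array. Those 3 were the probes of X67837 and X90729, each above background on BnCRY2aOE replicate 2 alone, and 1 of the probes of X82577, above background on wild type replicate 1 alone. For 15 records no probe could be compared, and for 13 of these no probe was well above background on any array.

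The levels of the 53 compared probes had means over the 4 arrays from -4.45 to 7.30 and a median of -0.10, where all 29949 compared probes ran from -5.80 to 10.8 with a median of -0.97. A probe's brightness depends on its own binding as well as on its transcript, so the levels order spots and not transcripts. Records were ordered by the mean over their compared probes. The brightest record was Y12458, at 7.14 and 7.22 on the BnCRY2aOE arrays and 7.38 and 7.45 on the wild-type arrays. This corresponded to 35899 and 32465 brightness units in BnCRY2aOE and 36508 and 39550 in wild type. The BnCRY2aOE values lay below both wild-type values, by 0.23 ± 0.17 on the log2 scale (SE, limma), a difference that did not pass the test (adjusted p = 0.994). Its size depended on the processing. The fitted log2 change was -0.03 under quantile scaling of the arrays and -0.03 under normexp, another background correction. Normexp was here followed by quantile scaling, so these values are not separate. With normexp fitted without marked spots the change was 0.003.

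For the other records among the 5 brightest by this mean, no difference passed the test. A single probe of M60068 had a mean level of 4.78, above that of U15604, while the average of its 3 probes lay below it. U10150 was at 6.08 and 5.77 in BnCRY2aOE and at 6.10 and 6.20 in wild type. X91486 was at 6.12 and 5.60 in BnCRY2aOE and at 6.27 and 6.15 in wild type. X89451 was at 5.36 and 5.18 in BnCRY2aOE and at 5.32 and 5.74 in wild type, so the genotypes overlapped. U15604, at 4.43 and 4.02 in BnCRY2aOE and 4.22 and 4.02 in wild type, overlapped as well. For these 4 records the fitted log2 change (BnCRY2aOE minus wild type) lay between -0.35 and 0.11.

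The dimmest records with a compared probe were X94625, X69887 and X82577. X94625 was at -4.64 and -4.35 in BnCRY2aOE and at -4.68 and -4.12 in wild type, and on wild type replicate 1 it was not well above background. X69887 was at -4.48 and -3.98 in BnCRY2aOE and at -4.01 and -4.28 in wild type. The genotypes overlapped for both. The compared probe of X82577 was lower on both BnCRY2aOE arrays, at -4.24 and -4.56, than on both wild-type arrays, at -3.85 and -3.84, without passing the test. The lowest level among all probes well above background on an array was between -4.82 and -4.57, so these records lay close to the limit of detection.

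**Figure D1:**
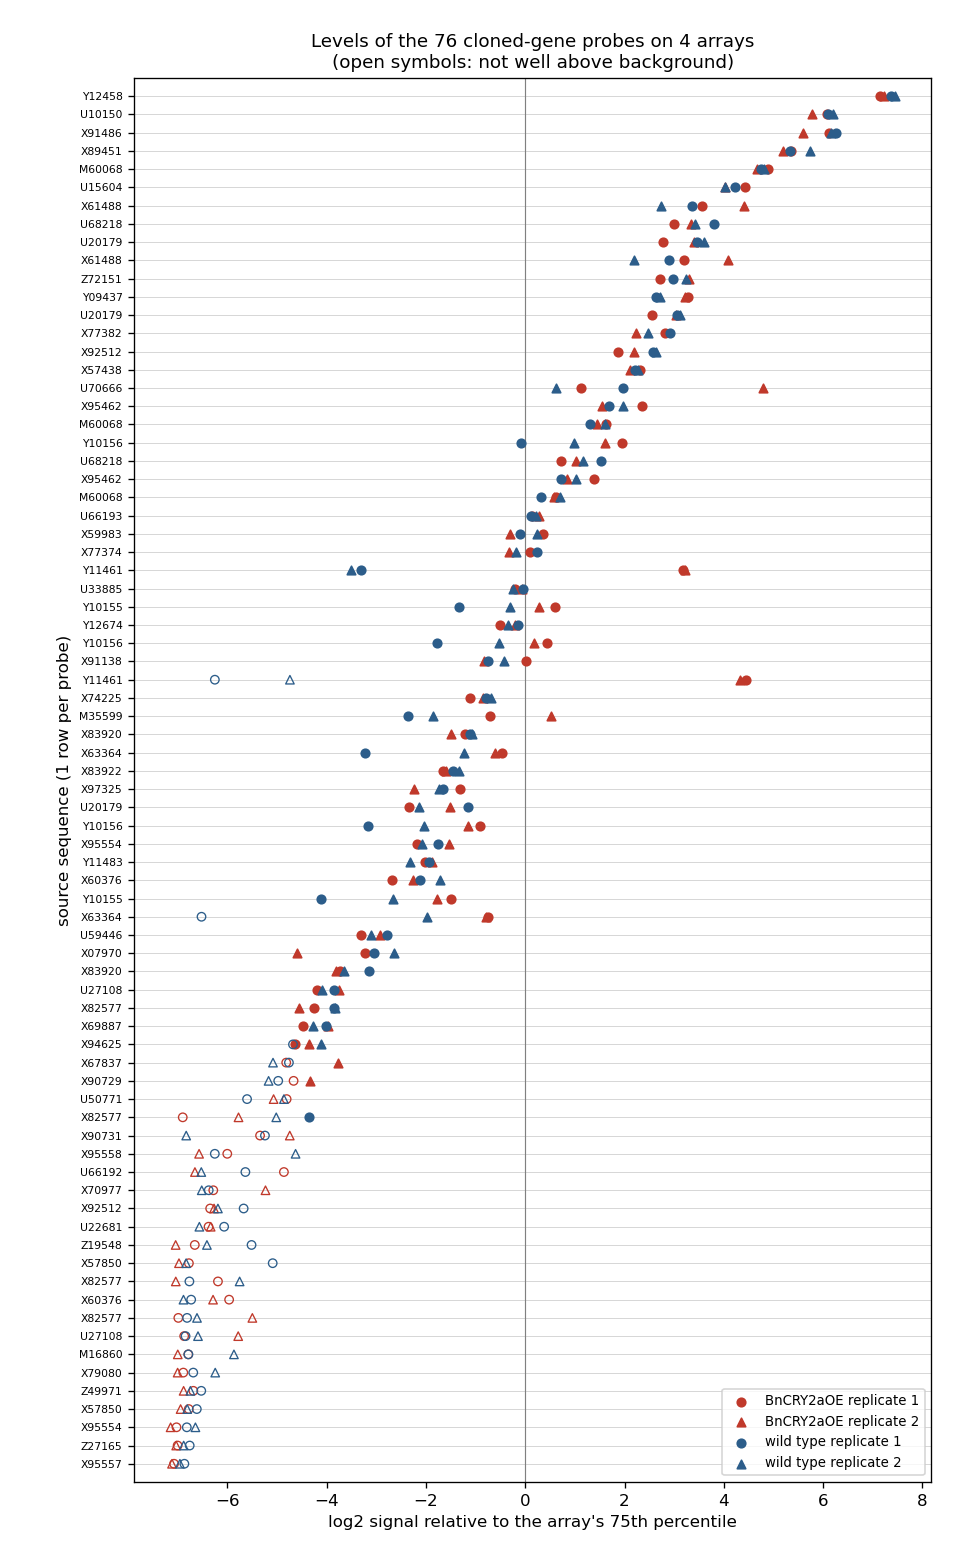
Level of each of the 76 probes (rows, labelled by record and ordered by mean over the 4 arrays) on each array, as log2 signal with the array's 75th percentile at 0; red is BnCRY2aOE, blue is wild type, circles are replicate 1, triangles are replicate 2, and open symbols were not well above background. Most rows hold their 4 symbols close together, and the 2 probes of Y11461 have red and blue symbols far apart.

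Genotypes were compared probe by probe in a fit over all 29949 compared probes of the array (limma, Benjamini-Hochberg adjustment over all of them, threshold 0.05). Of the 53 cloned-gene probes 2 were higher in BnCRY2aOE, where 0.197% of all compared probes were called higher. For 1 of the 2, A_46_P012171 of Y11461, the BnCRY2aOE arrays alone were well above background, which let it into the comparison. None of the 53 was called lower, where 0.257% of all compared probes were. By limma's p before adjustment, 11 of the 53 lay under 0.05, 9 higher and 2 lower, or 20.8% against 6.35% of all compared probes. These 11 probes read 7 records, and probes of 1 record are not independent of each other. The median log2 change was -0.03 for the 53 probes and -0.02 for all compared probes.

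The central 50% of the changes lay between -0.25 and 0.57 for the cloned-gene probes and between -0.19 and 0.16 for all compared probes. A mean change of at least 2-fold upward was seen for 12 of the 53 probes (22.6%, against 2.54% of all compared probes), and downward for 1 (1.89%, against 2%). The 12 probes read 7 records, Y11461, X63364, M35599, Y10155, U70666, Y10156 and X61488. Of the 12, only the 2 probes of Y11461 passed the test. The count depended on the processing. With normexp, which adds an offset of 50 brightness units and thereby draws changes of dim spots towards 0, 5 of the 12 were still at least 2-fold higher (9.43% of the 53, against 0.574% of all compared probes). With normexp fitted without marked spots 8 were, of 52 cloned-gene probes that could be fitted (15.4%, against 0.856%). Both genotypes lay apart, with no overlap, for 13 probes upward (24.5%, against 14.5% of all compared probes) and for 15 downward (28.3%, against 19.7%). The 13 probes read M35599, X61488, X63364, Y09437, Y10155, Y10156 and Y11461, most of them with more than 1 probe. Probes of 1 record are not independent of each other, so these shares do not count records. With the compared probes of each record averaged, 7 of 40 records were at least 2-fold higher (17.5%, against 2.59% of all compared sequences) and 1 was at least 2-fold lower.

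**Figure D2:**
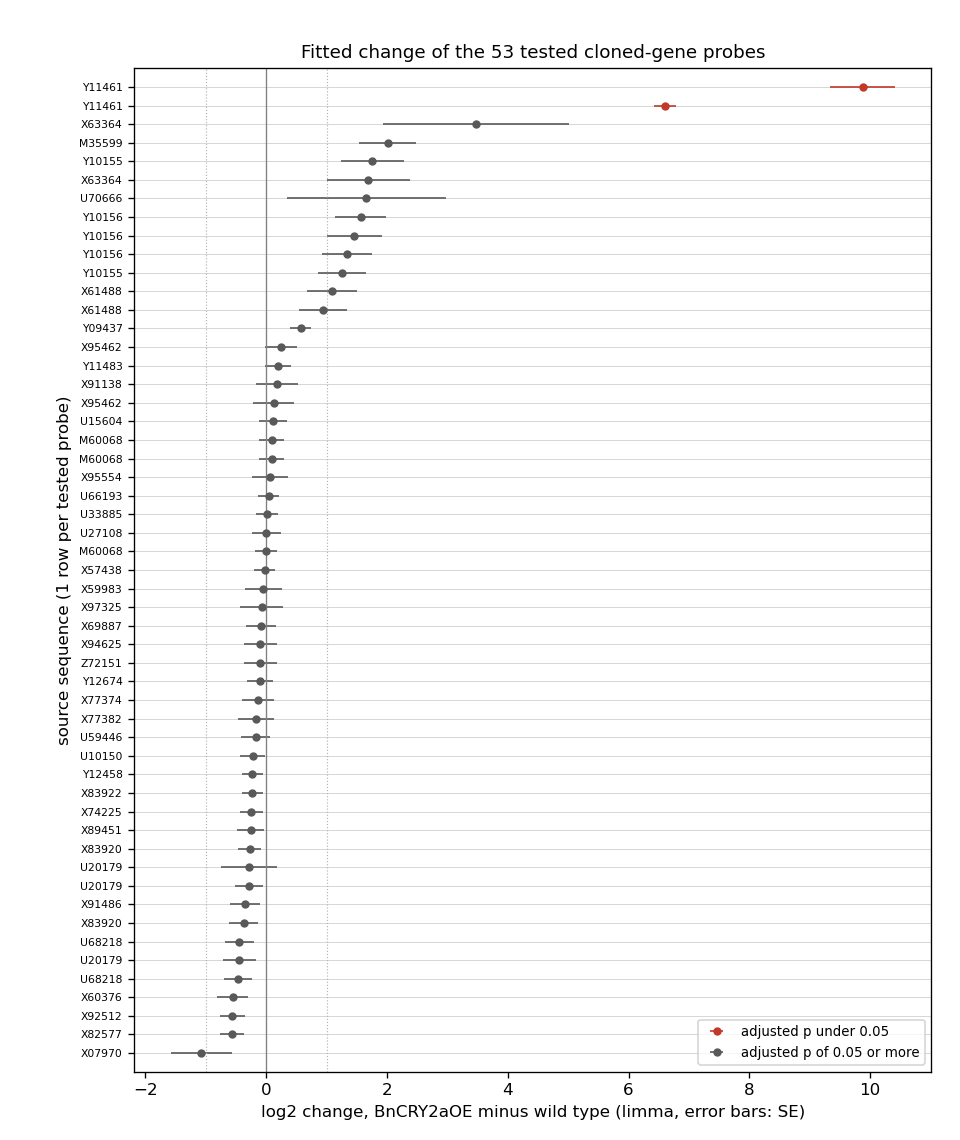
Fitted log2 change, BnCRY2aOE minus wild type, of the 53 compared probes (rows, labelled by record), with SE from limma as error bars; dotted lines mark a 2-fold change. The 2 probes of Y11461 (red) passed an adjusted p of 0.05, the upper one with wild-type signals not well above background, and 10 further probes lay at or beyond 2-fold upward without passing it.

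Y11461 was the one cloned-gene record with probes past the threshold, higher in BnCRY2aOE on both of its probes. Its probe A_46_P137029 was at 3.19 and 3.22 in BnCRY2aOE leaves and at -3.30 and -3.50 in wild-type leaves, which is 2311 and 2025 brightness units in BnCRY2aOE against 22.36 and 19.997 in wild type. It was well above background on all 4 arrays, and the genotypes differed by 6.60 ± 0.18 on the log2 scale (SE, n = 2 arrays per genotype), 97.2-fold (adjusted p = 0.0062, limma). The gap between the replicates was 0.03 in BnCRY2aOE and 0.21 in wild type. The size of the change depended on the processing, with a log2 change of 4.05 under normexp and of 4.79 under normexp without marked spots. Under quantile scaling alone it was 6.62. In whole leaves, more RNA per cell and more cells that hold the RNA cannot be told apart.

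The second probe of Y11461, A_46_P012171, was at 4.44 and 4.32 in BnCRY2aOE and at -6.25 and -4.74 in wild type, with 5531 and 4334 brightness units in BnCRY2aOE against 2.89 and 8.49 in wild type. Neither wild-type array was well above background, so its difference is a bound. The probe entered the comparison through its BnCRY2aOE arrays alone, where it was high, so its call is no separate support for a rise. Each wild-type level was replaced, where it was lower, by the lowest level that any probe well above background had on that array. This gave an approximate bound of a 507-fold higher signal in BnCRY2aOE (adjusted p = 0.0139, limma, which rests in part on the spread of wild-type signals at background). The replacing level is not a strict limit. On wild type replicate 2 it was -4.65, and the probe of X95558 lay at -4.62 there without being well above background. The bound of 507-fold holds for the processed signal alone, since the fitted log2 change was 5.44 under normexp and 6.34 under normexp without marked spots. The fitted p of A_46_P012171 missed the threshold without BnCRY2aOE replicate 1 (adjusted p = 0.0651), without BnCRY2aOE replicate 2 (adjusted p = 0.0519) and when dim probes were not filtered (adjusted p = 0.0540). A_46_P137029 passed it in all 16 alternatives run, with limma's adjusted p from 0.0044 to 0.0445.

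With the compared probes of each record averaged and the fit made over 27820 source sequences, Y11461 was again the single record past the threshold. It was higher by 8.24 ± 0.28 on the log2 scale (SE, adjusted p = 0.0073, limma), a value that includes wild-type signals at background. With probes well above background on all arrays, which left A_46_P137029 alone for this record, it was higher by 6.60 (adjusted p = 0.0095, limma). In the fit over 27820 source sequences 1 of 40 records was called higher, where 0.191% of all sequences were, and 0 of 40 called lower, where 0.248% were. By limma's p before adjustment, 7 of the 40 records lay under 0.05, 5 higher and 2 lower, where 6.46% of all sequences lay under it in either direction.

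Several of the other records with mean changes of at least 2-fold upward had replicates far apart. The replicates of wild type were at least 2-fold apart for 9 of the 53 probes (17%, against 3.21% of all compared probes), and those of BnCRY2aOE for 3 (5.66%, against 10.9%). The 9 probes read 5 records, Y10155, Y10156, X63364, U70666 and Y11461, and 5 of the 9 are the probes of Y10155 and Y10156. In 8 of the 9 wild type replicate 1 was the lower one. Of the 9, A_46_P011641 of X63364 and A_46_P012171 of Y11461 were not well above background on that array. Among the 12 probes with a mean change of at least 2-fold upward, wild type replicate 1 was the lowest of the 4 arrays for 9. Without that array 8 of the 12 were still at least 2-fold higher, as were 10 when wild type replicate 2 was left out. Leaving out BnCRY2aOE replicate 1 kept 12, and leaving out BnCRY2aOE replicate 2 kept 10. The part of wild type replicate 1 in these changes was not tested further.

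Y10155 and Y10156 have consecutive identifiers and are read by 5 probes, which gave similar log2 changes at different levels. The brightest of these probes, A_46_P138829 of Y10156, was at 1.94 and 1.61 in BnCRY2aOE and at -0.09 and 0.98 in wild type. On all 5 probes both BnCRY2aOE arrays lay above both wild-type arrays, and wild type replicate 1 lay below replicate 2 by 1.03 to 1.44. The log2 changes of the 5 probes ran from 1.26 to 1.75, and none passed the test (adjusted p from 0.556 to 0.671, limma). Without wild type replicate 1 the changes were 0.75 to 1.03. Whether the nucleotide sequences of Y10155 and Y10156 are alike is not recorded in the files, so the 5 probes cannot be counted as reading separate transcripts.

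X63364 held the probe with the widest gap between replicates of 1 genotype among the compared cloned-gene probes. Its probe A_46_P011641 was at -0.76 and -0.79 in BnCRY2aOE and at -6.52 and -1.97 in wild type, where replicate 1 was not well above background. Its other probe, A_46_P197072, was at -0.48 and -0.60 in BnCRY2aOE and at -3.22 and -1.23 in wild type. Both probes were thus level in BnCRY2aOE, lower in wild type replicate 2 and far lower in wild type replicate 1. The log2 changes of 3.47 ± 1.54 and 1.69 ± 0.69 (SE) did not pass the test (adjusted p = 0.890 and 0.839, limma). Without wild type replicate 1 they were 1.20 and 0.70. With wild type replicate 1 as the sole wild-type array, A_46_P011641 and the average of the record passed the threshold (adjusted p = 0.0089 and 0.0214, limma). That fit assumes the lone wild-type array to vary like the BnCRY2aOE arrays, and A_46_P011641 was not well above background on it, so no size is given.

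The following 4 records are described because of their values. M35599, with 1 probe, was at -0.71 and 0.51 in BnCRY2aOE and at -2.36 and -1.86 in wild type, so the genotypes did not overlap while the BnCRY2aOE replicates were 1.22 apart. Its change of 2.01 ± 0.47 (log2, SE) did not pass the test (adjusted p = 0.448, limma). It was 1.40 without BnCRY2aOE replicate 2, 2.62 without BnCRY2aOE replicate 1 and 1.76 without wild type replicate 1.

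U70666, also with 1 probe, was at 1.13 and 4.79 in BnCRY2aOE and at 1.97 and 0.63 in wild type. BnCRY2aOE replicate 2 stood alone above the other arrays, and the genotypes overlapped. Its change of 1.66 ± 1.32 (log2, SE; adjusted p = 0.994, limma) was -0.17 without BnCRY2aOE replicate 2 and 3.49 without BnCRY2aOE replicate 1.

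X61488 is read by 2 probes, at 3.56 and 4.41 and at 3.20 and 4.08 in BnCRY2aOE, against 3.36 and 2.74 and 2.89 and 2.20 in wild type. All BnCRY2aOE values lay above the wild-type values of the same probe, with changes of 0.94 ± 0.39 and 1.10 ± 0.41 (log2, SE) that did not pass the test (adjusted p = 0.846 and 0.784, limma). The changes were 0.52 and 0.66 when BnCRY2aOE replicate 2 was left out and 1.37 and 1.54 when BnCRY2aOE replicate 1 was. In Y09437 the difference was small and the replicates were close. Its probe was at 3.29 and 3.22 in BnCRY2aOE and at 2.64 and 2.72 in wild type, a change of 0.57 ± 0.17 (log2, SE; adjusted p = 0.633, limma).

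**Figure D3:**
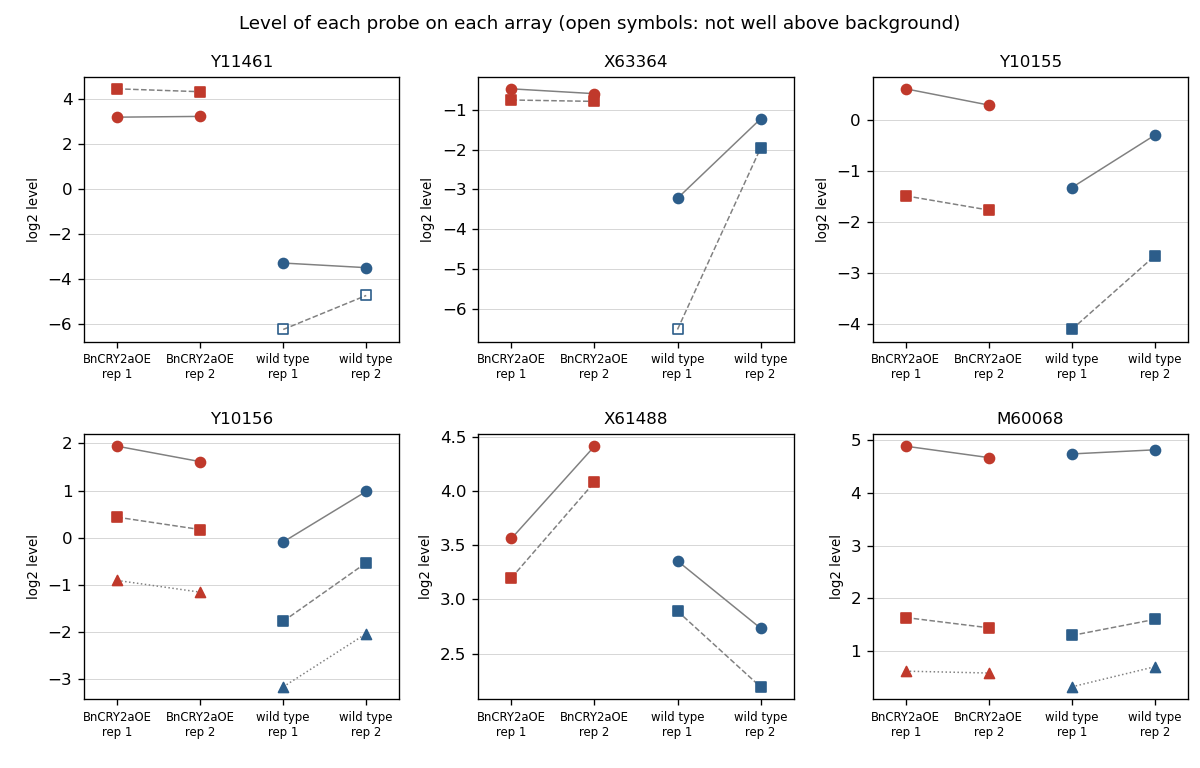
Level of each probe (log2 signal with the array's 75th percentile at 0; 1 symbol shape and line style per probe, scales differ between panels) on the BnCRY2aOE arrays (red) and the wild-type arrays (blue) for 6 records; open symbols were not well above background. Y11461 has the genotypes far apart, X63364, Y10155, Y10156 and the probe A_46_P012171 of Y11461 are lowest in wild type replicate 1, X61488 is highest in BnCRY2aOE replicate 2, and M60068 is level.

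In the downward direction no record passed the test. The largest mean difference downward with genotypes that did not overlap was that of X07970 (probe A_46_P307010), with levels of -3.23 and -4.60 in BnCRY2aOE and of -3.05 and -2.63 in wild type. Its change of -1.07 ± 0.51 (log2, SE; adjusted p = 0.915, limma) was -0.39 when BnCRY2aOE replicate 2 was left out and -1.76 when BnCRY2aOE replicate 1 was. The next was the compared probe of X82577, A_46_P238764, with a change of -0.56 ± 0.20 (log2, SE; adjusted p = 0.763, limma). X92512, whose compared probe was at 1.87 and 2.20 in BnCRY2aOE and at 2.57 and 2.62 in wild type, had a change of the same size, -0.56 ± 0.20 (log2, SE; adjusted p = 0.767, limma). So had the compared probe of X60376, also without overlap, at -0.56 ± 0.26 (log2, SE; adjusted p = 0.910, limma). These sizes depended on the processing. Under normexp the log2 change was -0.19 for X07970, -0.06 for X82577, -0.40 for X92512 and -0.14 for X60376. Under normexp without marked spots it was -0.28, -0.09, -0.44 and -0.19.

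Of the 55 records, 16 are read by more than 1 probe, 12 by 2, 3 by 3 and 1 by 4. For 10 of them at least 2 probes were compared, 23 probes in all. In 9 of the 10 the fitted changes of all compared probes had the same sign, although those of 1 record alone, Y11461, passed the test. The exception was M60068, whose probes had log2 changes of 0.00, 0.09 and 0.09, with the lowest just under 0. All 7 records with 2 compared probes had the same sign, against 75.1% of 1541 other sequences of the array with 2 compared probes. For 3 compared probes it was 2 of 3 records, against 57.1% of 205 other sequences. The range of the change over the probes of 1 record had a median of 0.15 for the 7 records and 0.13 for the 1541 other sequences. These values describe the probes and were not tested, since probes of 1 record are hybridised to the same 4 samples.

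The fitted changes were closest in U68218, M60068 and X83920. The probes of U68218 had log2 changes of -0.47 and -0.44, while one was brighter than the other by 2.28 and 2.31 in BnCRY2aOE and by 2.27 and 2.26 in wild type. Those of X83920 were -0.27 and -0.37. In M60068 the brightest probe exceeded the dimmest by 4.27 and 4.09 in BnCRY2aOE and by 4.42 and 4.11 in wild type. In M60068 a difference in level of that size thus went with changes that were 0.09 apart at most. In U20179 the 3 probes had log2 changes of -0.28, -0.29 and -0.45, over a span in level of 5.09. The dimmest of them had a wider SE, 0.46 against 0.23 and 0.27.

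The fitted changes were furthest apart in Y11461, X63364 and Y10155. In Y11461 the probe A_46_P012171 was the brighter one in BnCRY2aOE, by 1.26 and 1.10, and the dimmer one in wild type, by 2.95 and 1.24, where it was not well above background. With the bound of 8.99 in place of its fitted change of 9.87, the probes still differed by more than the SE of either, 8.99 against 6.60. In X63364 the gap between the probes was 0.28 and 0.19 in BnCRY2aOE and 3.29 and 0.74 in wild type, the widest on wild type replicate 1. The probes of Y10155 had log2 changes of 1.26 and 1.75, and the gap between them was 2.09 and 2.05 in BnCRY2aOE and 2.78 and 2.36 in wild type. A range of more than 1 on the log2 scale was found in 2 of the 7 records with 2 compared probes, against 3.31% of the 1541 other sequences, and both rest on a probe that was not well above background on at least 1 wild-type array.

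**Figure D4:**
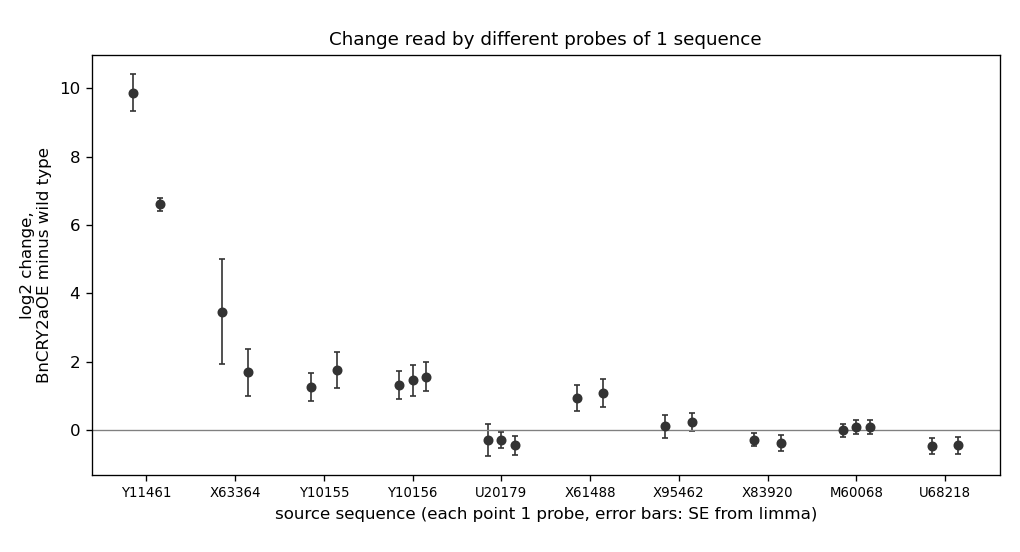
Fitted log2 change, BnCRY2aOE minus wild type, of each compared probe (points, with SE from limma as error bars) for the 10 records with at least 2 compared probes, ordered by the range over their probes. Within a record the points lie close together except in Y11461 and X63364, whose probes are 3.27 and 1.78 apart.

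Probes of 1 record could also differ in whether they gave a signal at all. In 5 records, X82577, U27108, X60376, X92512 and X95554, 1 probe was well above background on all 4 arrays and another on none. The difference was widest in X92512, where A_46_P154949 had a level of 2.03 ± 0.23 in BnCRY2aOE and of 2.60 ± 0.04 in wild type (SD, n = 2) and A_46_P009546 at 2.83 to 3.13 brightness units in BnCRY2aOE and 3.11 to 4.32 in wild type, not well above background. X95554 had a probe with levels of -1.85 ± 0.46 in BnCRY2aOE and of -1.92 ± 0.23 in wild type and another not well above background on any array. In X60376 the detected probe had -2.48 ± 0.29 in BnCRY2aOE and -1.92 ± 0.29 in wild type. In U27108 it had -3.97 ± 0.31 in BnCRY2aOE and -3.97 ± 0.17 in wild type, near the limit of detection. X82577 has 4 probes, of which A_46_P238764 was detected on all 4 arrays, A_46_P246394 on wild type replicate 1 alone and the other two on none. For these 5 records a description from a single probe would depend on which probe was read.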

How the data were processed

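Per the labels' protocols, total leaf RNA was amplified, labelled with Cy3 and hybridised singly. Per the file headers, the authors read the arrays with Agilent Feature Extraction 10.7.3.1; its deposited processed intensity is corrected for background and spatial trends, and 0 or 1 marks give spots well above background, saturated or outlying. The authors also deposited a table of log2 values, centred per probe, whose scaling between arrays is not given in the sources used here; it served as an alternative.

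Control spots and outlier spots were left out, processed intensities were set to log2 minus the array's 75th percentile, and repeated spots were averaged. Genotype was the only term in limma 3.58.1 (R 4.3.3; lmFit, eBayes, two-sided), with 2 residual and 2.43 prior degrees of freedom per probe, and 2 arrays per genotype limit the precision. The fit by probe was checked on simulated data with the same noise for every probe, which does not cover unequal spread or signals at background. The second fit used the mean over the compared probes of each source sequence. An approximate bound replaces the fold of a probe that neither array of a genotype measured above background.

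Named records were, by rule, called rises (at most 2), the 2 largest differences downward without overlap, the 5 brightest and 3 dimmest, the 3 widest and narrowest in change over probes, the 3 with most probes and those on both sides of detection. M35599, U70666, X61488, Y09437, Y10156 and the changes of X92512 and X60376 were added after their values were seen. The records and the rule were chosen with earlier results of these data known. No cell type markers or gene lists could be used without gene names. The planned normexp correction used the raw median intensity in place of the raw mean intensity.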

Additional observations from a re-analysis of the deposited data

How the results depend on the processing

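Added after seeing the data were normexp without marked spots, raised dim signals for the calls, a crossed block and record means over probes with a value on every array. Called cloned-gene probes numbered 2 and called records 1. The probe count was 1 without a filter on dim probes and 1 when every array had to be well above background, and it ran from 1 to 3 when 1 array was left out; the record count then ran from 1 to 2, with a lone array assumed to vary like those of the other genotype. Without the filter 43603 probes were tested in place of 29949, and the filter on all arrays removed A_46_P012171 by construction. The other causes were not tested. Under quantile or median scaling, normexp with or without marked spots, the authors' value table, kept outlier spots, an intensity trend and raised dim signals the counts stayed at 2 and 1. With a replicate block they were 2 and 1 as well. The other record mean left the record count at 1 and the calls over all sequences at 122. Deviations of arrays with the same number were not alike over the compared probes (r = -0.16), and the labels tie no shared plants to a number; a crossed block gave 165 calls over the array, where the unblocked test gave 136. Over the array the calls were 28 with normexp, 46 with normexp without marked spots, 46 without the filter, 32 with probes on all arrays, 38 with the block and 37 to 211 when 1 array was left out. Records whose compared probes all had fitted changes of the same sign numbered 9 of 10, 12 of 16 without the filter, 7 of 8 with probes on all arrays and 8 to 10 of 10 without 1 array. Y11461 as a record passed the threshold in all 17 alternatives (adjusted p from 0.0042 to 0.0481, limma). These alternatives are not separate tests of Y11461. Keeping outlier spots and the other record mean left its log2 change at 8.24, since none of its spots was marked as an outlier and its probes had a value on every array. Signals near background limit folds to bounds, and 2 arrays per genotype limit the calls.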
